A study of Homo sapiens with 15 samples.

Results

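Small RNA of human cells given the NADPH oxidase inhibitor GKT136901 together with the lipid products that lipoprotein lipase (LPL) makes from very low-density lipoprotein (VLDL) was compared with small RNA of cells given VLDL itself. The comparison takes 10 of the 15 libraries of the series: 5 libraries of cells incubated for 18 h with 20 µM GKT136901 and LPL:VLDL, and 5 of cells incubated with VLDL, whose titles read pcDNA:VLDL. The libraries were chosen by these labels and paired by the experiment, numbered 2 to 6, that the labels give each library. Inhibitor and lipid products differ together between the groups, so their separate effects cannot be told apart from these 10 libraries alone. The other 5 libraries, with LPL:VLDL and no inhibitor, entered the model for its estimate of the spread. All cells are labelled wild-type HEK-293, a line from human embryonic kidney, while the title of the series speaks of macrophages. The labels do not say what pcDNA stands for, whether the VLDL group received the inhibitor's solvent, or whether experiments used separate passages. The p-values therefore describe how these libraries vary, and some of that variation may be technical.

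The 10 libraries held 5.08 M to 9.76 M counts. The lowest was the GKT136901 library of experiment 3, and the mean was 8.16 M ± 1.78 with GKT136901 and 9.18 M ± 0.602 with VLDL (SD, n = 5 each). Genes that mark HEK-293 cells were nearly absent: 0 of 20 had enough counts to test, and their summed level was 0 to 2.64 CPM, the count relative to the library total, in the 10 libraries. LHX1, LIN28B, KRT8, KRT18, NEFM, INA, L1CAM and CKMT1B, which are on that list, had no count in any of the 15 libraries. Reads that fit several places or genes were not counted, so a 0 here or below does not by itself show that an RNA was absent. Myeloid genes had more: CSF1R, the receptor for macrophage colony-stimulating factor, held 1771 counts over the 15 libraries, although AIF1, HLA-DRA, MIR223 and MIR142 were at 0. MIR223 and MIR142 lie wholly in exons of their host genes, where reads shared by both were not counted, so their 0 says nothing of their level. As counted, the markers thus differ from the labelled cell type.

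LPL sits on the surface of vessel walls and on macrophages and cuts the triglycerides of VLDL into free fatty acids, which cells take up, store in lipid droplets, burn in mitochondria or sense through nuclear receptors. NADPH oxidases (NOX enzymes) pass electrons from NADPH to oxygen and so make superoxide or hydrogen peroxide; GKT136901 is described as an inhibitor of NOX1 and NOX4. Small RNA libraries catch the short RNAs that act in a cell, among them microRNAs (miRNAs). A miRNA pairs with mRNAs through its seed and lowers their output. Such libraries also hold longer RNAs or pieces of them, such as small nucleolar RNAs (snoRNAs, guides for chemical marks on ribosomal RNA), transfer RNAs (tRNAs) and mRNAs. A count on such a longer gene may come from a fragment, so it is not a measure of the intact RNA. In bulk samples, fewer cells of a type and less RNA per cell cannot be told apart.

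The miRNAs with the lowest p among those higher in every experiment were MIR139 and MIR378A. In 2 further pairs, picked after their values were seen, the miRNAs share a seed and were above 0, like most miRNAs. Mature sequences are shown because the counts are given per precursor gene and not per arm, so either arm can have supplied them. Sequences are from RefSeq (GRCh38.p14), 5′ to 3′, and the capitals mark the seed, bases 2 to 8 of the mature miRNA.
hsa-miR-139-5p: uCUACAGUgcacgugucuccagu
hsa-miR-139-3p: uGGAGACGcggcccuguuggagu
hsa-miR-378a-5p: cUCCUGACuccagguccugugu
hsa-miR-378a-3p: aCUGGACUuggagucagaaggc
hsa-miR-501-3p: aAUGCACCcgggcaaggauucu
hsa-miR-502-3p: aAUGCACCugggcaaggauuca
hsa-miR-148b-3p: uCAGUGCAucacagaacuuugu
hsa-miR-152-3p: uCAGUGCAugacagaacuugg
The seeds of miR-501-3p and miR-502-3p are the same, as are those of miR-148b-3p and miR-152-3p. On the minus strand of chromosome 11, miR-139-5p lies at chr11:72615102-72615124 and miR-139-3p at chr11:72615066-72615088, within an intron of PDE2A. Within an intron of PPARGC1B on the plus strand of chromosome 5, miR-378a-5p lies at chr5:149732829-149732850 and miR-378a-3p at chr5:149732867-149732888.

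Across all genes tested, no gene passed the test. Of 4099 genes with enough counts, edgeR's quasi-likelihood test with the experiment as a block called 0 (0%) at an adjusted p under 0.05, and 177 (4.32%) had an unadjusted p under 0.05, 84 higher and 93 lower with GKT136901 and LPL:VLDL. DESeq2 called 2 genes, LOC105371225 and MIR139. By limma voom 5 were called: LOC105371225, H2BC10, TRNF and TRNL2 were higher and KRR1 was lower. Without the block edgeR also called 0, with 40 higher and 51 lower at an unadjusted p under 0.05. Of the 4099 genes, 150 (3.66%) were higher in 5 of 5 experiments and 153 (3.73%) were lower in 5 of 5.

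The exact sign-flip permutation test of RNA class shares cannot give a p under 0.05 with 5 pairs, so it could not call any class. In the unpaired exact permutation test, which can, the lowest unadjusted p was 0.111, for 7SK RNA. C/D box snoRNAs, which guide ribosomal RNA methylation, held 55.6% ± 5.81 against 57.9% ± 4.1 (SD, n = 5) of all counts. miRNAs held 39.9% ± 6.76 against 37.8% ± 5.22 (SD, n = 5). The miRNA share was 30.2%, 37.5%, 36%, 41.8% and 43.5% with VLDL in experiments 2 to 6 and 30.4%, 36.9%, 41.2%, 48.7% and 42.2% with GKT136901 and LPL:VLDL. It was higher in 3 of 5 experiments, by up to 6.95 percentage points in experiment 5, and the ranges overlapped (exact two-sided sign-flip permutation p = 0.4375). The ratio of miRNA to C/D snoRNA counts was 0.734 ± 0.201 against 0.66 ± 0.135 (SD, n = 5), also higher in 3 of 5.

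Mitochondrial tRNAs, which the mitochondrial genome encodes for its own protein synthesis, had the highest of the mean log2 ratios over the 14 classes, 0.40. Their share was 0.228%, 0.132%, 0.123%, 0.105% and 0.0774% with VLDL and 0.237%, 0.221%, 0.193%, 0.131% and 0.0905% with GKT136901 and LPL:VLDL, in the order of experiments. It was higher in 5 of 5 experiments, at a mean of 0.174% ± 0.0621 against 0.133% ± 0.0569 (SD, n = 5), and the ranges overlapped, with experiment 2 the highest and experiment 6 the lowest in both groups. Most counts of mitochondrial tRNAs were of the gene TRNF, with 148414 over the 15 libraries, and TRNH was next with 24355. The share of other small RNAs, mostly RMRP, the RNase MRP RNA, was also higher in 5 of 5, at 0.0404% ± 0.00505 against 0.0392% ± 0.00539 (SD, n = 5). RMRP held 49728 counts over the 15 libraries and RN7SL1, a 7SL RNA, 1793, while RPPH1, the RNase P RNA, had no count. Small Cajal body RNAs (scaRNAs), guides for marks on spliceosomal RNAs, were lower in 5 of 5, at 0.0894% ± 0.00623 against 0.0966% ± 0.0112 (SD, n = 5). Each of these 3 classes had an exact two-sided sign-flip permutation p of 0.063, and 5 pairs cannot give a smaller one (adjusted p = 0.292 over 14 classes). The unpaired exact permutation p was 0.317 for mitochondrial tRNAs, 0.69 for other small RNAs and 0.27 for scaRNAs.

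The remaining classes had no common direction over experiments. Long noncoding RNAs (lncRNAs) held 0.679% ± 0.278 against 0.554% ± 0.169 (SD, n = 5), mostly through experiment 4, at 1.06% against 0.634%. Nuclear tRNAs held 0.813% ± 0.257 against 0.757% ± 0.202 (SD, n = 5) and mRNA fragments 1.05% ± 0.143 against 1.1% ± 0.219 (SD, n = 5). Y RNAs, cytoplasmic RNAs bound by the Ro protein, held 1.29% ± 1.11 against 1.31% ± 1.01 (SD, n = 5), and in both groups the library of experiment 2 stood apart, at 3.24% and 3.12%. H/ACA snoRNAs, guides of pseudouridylation, held 0.14% ± 0.0352 against 0.158% ± 0.0356 (SD, n = 5) and were lower in 4 of 5 experiments. Small nuclear RNAs (snRNAs), which include those of the spliceosome and U7 RNA, held 0.0252% ± 0.00498 against 0.03% ± 0.00507 (SD, n = 5). 7SK RNA, which restrains transcription elongation, held 0.0177% ± 0.00234 against 0.0206% ± 0.00272 (SD, n = 5), lower in 4 of 5. Mitochondrial mRNA held 0.0533% ± 0.0157 against 0.049% ± 0.0185 (SD, n = 5) and mitochondrial rRNA 0.105% ± 0.0298 against 0.0953% ± 0.0171 (SD, n = 5).

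**Figure D1:**
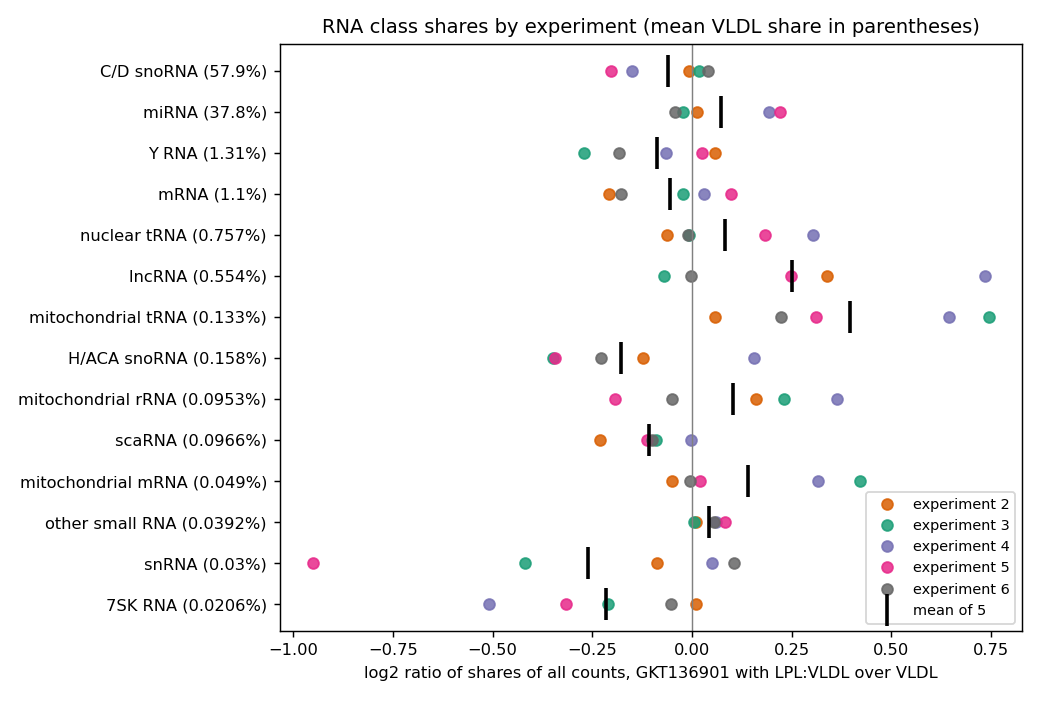
Log2 ratio of each RNA class share (GKT136901 with LPL:VLDL over VLDL) in each of the 5 experiments, with the mean as a bar and the mean VLDL share beside the class name. Mitochondrial tRNA lies to the right of 0 in all 5 experiments and scaRNA to the left, while miRNA and C/D snoRNA lie on both sides.

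Single genes were compared next among the 473 well-counted genes, those with a mean of at least 10 CPM over all 15 libraries (98.9% of the counts). From here on, a gene's CPM is scaled by edgeR's TMM factors, and a log2 difference is GKT136901 with LPL:VLDL minus VLDL from the model with the experiment as a block. Of the well-counted genes 301 lay above 0, at a median of 0.045. At an unadjusted p under 0.05, 33 were higher (6.98%) and 4 lower (0.846%), and 54 (11.4%) were higher in 5 of 5 experiments against 9 (1.9%) lower in 5 of 5. This balance depended on the scaling and on experiment 2. With library totals in place of TMM factors 240 of 473 were above 0 (median 0.0027), and without experiment 2 it was 222 of 473 (median -0.017). Library totals also left 22 genes higher and 12 lower in 5 of 5, of which 17 and 5 were so with TMM factors too. With TMM factors MIR378A, MIR374A, SNORD1B, SNORA18, TRT-AGT1-1, TRNF, RMRP, LOC105373324, MIRLET7I, MIR146B, ND4L, INSIG1, TRNP, MIR501 and MIR320A were each higher or lower in 5 of 5 experiments; with library totals they were so in 4 of 5, and CSF1R in 3 of 5.

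Most well-counted miRNAs lay above 0. Of 133 well-counted miRNA genes 110 were above 0, at a median of 0.13; 28 were higher in 5 of 5 experiments and 1 was lower. With library totals 8 were higher in 5 of 5 and 0 were lower, and 97 of 133 were above 0 (median 0.087), and the same number were without experiment 2 (median 0.082). By experiment, the median miRNA was at 0.24, 0.019, 0.19, 0.15 and 0.044 for experiments 2 to 6. Of the 138 well-counted C/D snoRNAs 68 were above 0 (median -0.0022), and 1 was higher in 5 of 5. The miRNA medians were nearly the same by abundance: 0.13 for 69 genes at 10 to 100 CPM, 0.12 for 40 genes at 100 to 1000 CPM and 0.14 for 24 genes over 1000 CPM.

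**Figure D2:**
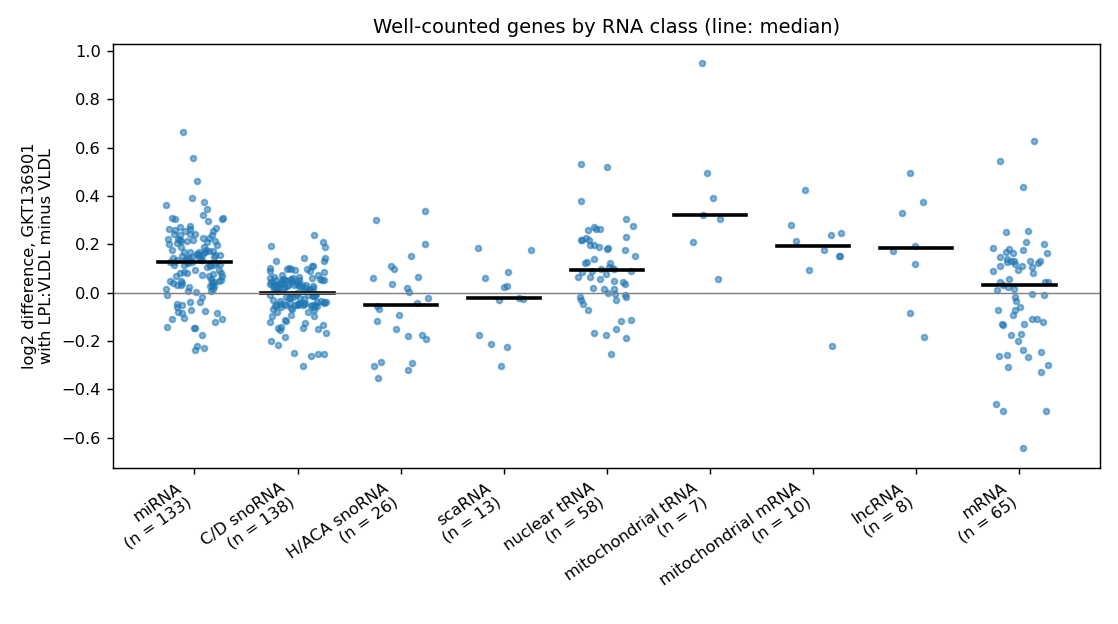
Log2 difference (GKT136901 with LPL:VLDL minus VLDL) of each well-counted gene, 1 point per gene, by RNA class, with the class median as a line. The miRNA median is 0.13 and the mitochondrial tRNA median 0.32, while C/D snoRNAs spread evenly about 0.

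MIR139 had the lowest p of the miRNAs. In experiments 2 to 6 it had 32.2, 123, 90.9, 21.5 and 18.4 CPM with VLDL and 44.4, 165, 152, 33.1 and 26.8 CPM with GKT136901 and LPL:VLDL. It was higher in 5 of 5 experiments, although experiments 3 and 4 lay far above the others in both groups and the ranges overlapped. The means were 84.3 CPM ± 68.2 against 57.1 CPM ± 47 (SD, n = 5), with a log2 difference of 0.56 (SE 0.13, 95% interval 0.30 to 0.81; edgeR adjusted p = 0.213). MIR139 is also on the list of miRNAs tied to NADPH oxidases and redox control.

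MIR378A, whose host gene PPARGC1B encodes a coactivator of mitochondrial and fatty acid oxidation genes, had 12.6, 30.9, 28.6, 29.4 and 29.4 CPM with VLDL and 27.8, 35.2, 39.3, 39.9 and 30.3 CPM with GKT136901 and LPL:VLDL. The VLDL library of experiment 2 was low and the difference in experiment 6 was small. The means were 34.5 CPM ± 5.35 against 26.2 CPM ± 7.65 (SD, n = 5), with a log2 difference of 0.46 (SE 0.16, 95% interval 0.14 to 0.78; edgeR adjusted p = 0.997). MIR4443, a miRNA outside the naming rule that was picked for its values, had 3.08, 17.4, 14.5, 7.66 and 4.82 CPM with VLDL and 5.59, 16.7, 20.5, 13.5 and 13.5 CPM with GKT136901 and LPL:VLDL, with a log2 difference of 0.66 (SE 0.22; edgeR adjusted p = 0.997). It was higher in 4 of 5 experiments and slightly lower in experiment 3.

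The miRNA pair with the AUGCACC seed lies in 1 cluster on the X chromosome. MIR501 had 62.2, 86, 85, 98.3 and 111 CPM with VLDL and 82.3, 93.1, 125, 117 and 117 CPM with GKT136901 and LPL:VLDL, higher in 5 of 5 at a log2 difference of 0.28 (SE 0.12). MIR502 had 10.6, 29.6, 26.9, 26.8 and 26.7 CPM with VLDL and 20.5, 27.3, 38.9, 28.6 and 37.9 CPM with GKT136901 and LPL:VLDL, higher in 4 of 5 at 0.39 (SE 0.16), and its VLDL library of experiment 2 was far below the rest. All 3 miRNAs of the CAGUGCA seed were above 0, as were 110 of all 133 well-counted miRNAs. MIR148A, the most abundant gene of this table and a regulator of the LDL receptor and ABCA1 in liver, had 47053, 98693, 91864, 155725 and 147997 CPM with VLDL and 57544, 92547, 95405, 170350.0 and 146626 CPM with GKT136901 and LPL:VLDL, a log2 difference of 0.074 (SE 0.10) with a 95% interval of -0.13 to 0.27. MIR148B had 4076 CPM ± 537 against 3573 CPM ± 1039 (SD, n = 5) and a log2 difference of 0.24 (SE 0.11), higher in 4 of 5. MIR152 had 489 CPM ± 101 against 425 CPM ± 98.6 (SD, n = 5) and 0.21 (SE 0.10), higher in 5 of 5. Of 8 let-7 family members tested 7 were above 0 (median 0.057). MIRLET7I, the most abundant of them, had 68269, 93268, 99121, 110751 and 110775 CPM with VLDL and 70348, 100447, 109550.0, 123621 and 126703 CPM with GKT136901 and LPL:VLDL, higher in 5 of 5 at 0.13 (SE 0.095), and MIRLET7G was at 0.14 (SE 0.094). MIRLET7F1 was at -0.14 (SE 0.12). MIR374A, at -0.073 (SE 0.12), was the miRNA lower in 5 of 5.

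Of all miRNAs, 202 of 291 tested and 110 of 133 well-counted ones were above 0, which is the background for the lists that follow. Of the 37 lipid and cholesterol miRNAs, 20 were tested and 19 were above 0, with a median of 0.13 beside 0.13 for all well-counted miRNAs. Of the 20, 5 were higher in 5 of 5 and 3 had an unadjusted p under 0.05, beside 28 and 19 of all 133 well-counted miRNAs. MIR185, which represses cholesterol uptake and synthesis genes, had 489.9, 854, 711, 815 and 956 CPM with VLDL and 678, 814, 1091, 997 and 965 CPM with GKT136901 and LPL:VLDL, at 0.26 (SE 0.12). The member below 0 was MIR301B, with 1.68 CPM ± 0.727 against 2.49 CPM ± 1.03 (SD, n = 5), near the limit of detection. Of 26 NADPH oxidase and redox miRNAs 12 were tested and 11 were above 0 (median 0.15, 3 higher in 5 of 5), again beside 110 of 133 well-counted miRNAs. MIR25, known to target NOX4, had 7219 CPM ± 551 against 6672 CPM ± 450.2 (SD, n = 5) and 0.11 (SE 0.093), MIR320A had 4742 CPM ± 637 against 4099 CPM ± 674 (SD, n = 5) and 0.22 (SE 0.10), and MIR99A was below 0 at -0.17 (SE 0.18). Of 29 inflammatory miRNAs 11 were tested, 8 above 0 (median 0.062). MIR146B, a brake on NF-kB signalling, had 15536, 18088, 17553, 15921 and 15892 CPM with VLDL and 17075, 19763, 18414, 18451 and 18558 CPM with GKT136901 and LPL:VLDL, higher in 5 of 5 at 0.15 (SE 0.092). MIR212 and MIR132, which are transcribed together and share a seed, had 0.30 (SE 0.14) and 0.26 (SE 0.13). Since 42 of the 101 bases of MIR132 also belong to an exon of LOC124903896, reads in that stretch are missing from its counts. MIR126 was at -0.058 (SE 0.10). The 3 tested members of the miR-17-92 and related clusters were all above 0 (median 0.11), while the other 12, which lie in exons of other genes, had no count and could not be read. MIR140, likewise picked for its values, had 1515 CPM ± 259.8 against 1263 CPM ± 225 (SD, n = 5) and 0.26 (SE 0.10).

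**Figure D3:**
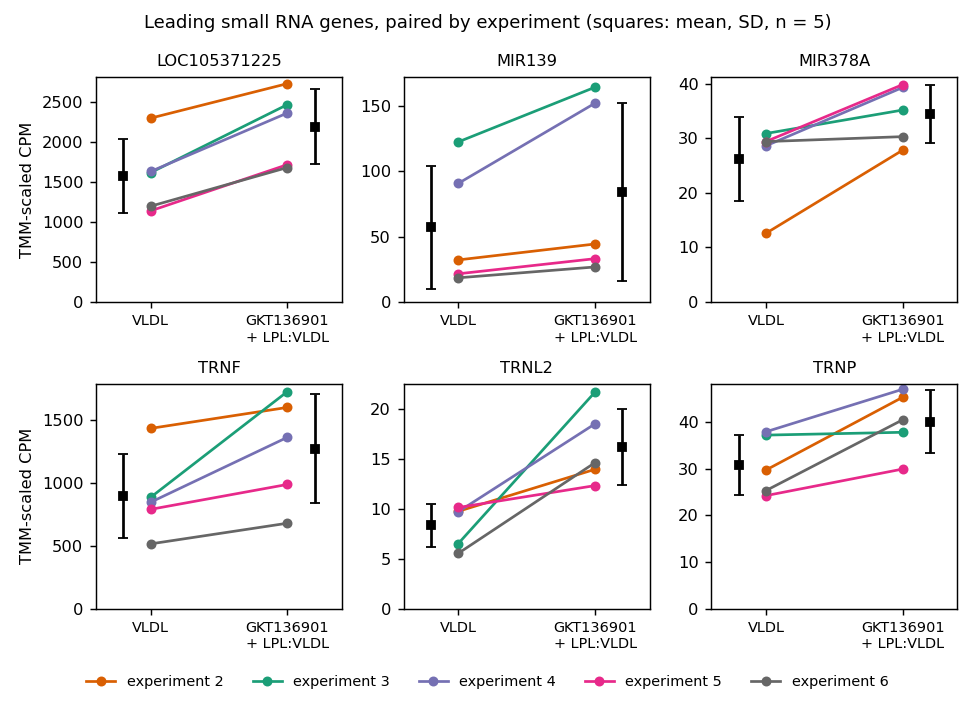
TMM-scaled CPM of 6 genes in the 10 libraries, with lines joining the libraries of an experiment and squares with bars for the mean and SD of 5. Every line climbs from VLDL to GKT136901 with LPL:VLDL (with library totals MIR378A, TRNF and TRNP are each higher in 4 of 5). TRNL2 is the gene of these 6 whose groups do not overlap.

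Mitochondrial transcripts stood mostly above 0. The mitochondrial genome is read as long transcripts from both strands, in which tRNAs lie between the rRNAs and mRNAs and are cut out. All 29 tested genes of this genome are shown in genome order in the plot of mitochondrial genes. Of these, 11 of 14 tRNAs (median 0.31) and 14 of 15 rRNAs and mRNAs (median 0.21) were above 0. Beside them, 1981 of all 4099 tested genes and 301 of 473 well-counted genes were above 0. By experiment, the median of the rRNAs and mRNAs was 0.20, 0.41, 0.29, -0.12 and 0.17 for experiments 2 to 6. Of 22 tRNA genes 4 had no count. All 7 well-counted tRNAs were above 0, at a median of 0.32 that ran from 0.27 to 0.39 when each experiment was left out, and 5 of the 7 were higher in 5 of 5 (3 with library totals). Genes on the plus strand (24 tested, median 0.21) and on the minus strand (5 tested, median 0.32) had medians on the same side. The strand of a read was ignored in counting, so these values cannot tell transcripts of the strands apart.

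The 3 mitochondrial tRNA genes of lowest p lie apart on the genome. Their DNA is shown from the GENCODE transcripts of GRCh38, 5′ to 3′ on the strand of the tRNA, since the counts are of reads assigned to these 71, 71 and 68 bases.
TRNF: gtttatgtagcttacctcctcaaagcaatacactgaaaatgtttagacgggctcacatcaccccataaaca
TRNL2: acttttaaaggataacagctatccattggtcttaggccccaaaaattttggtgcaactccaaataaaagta
TRNP: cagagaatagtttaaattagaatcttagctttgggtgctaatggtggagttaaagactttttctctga
TRNF, the phenylalanine tRNA at chrMT:577-647, is the first gene of the plus strand. It had 1435, 886, 847, 790.3 and 515 CPM with VLDL and 1602, 1728, 1364, 989 and 679.9 CPM with GKT136901 and LPL:VLDL, higher in 5 of 5 experiments with overlapping ranges. The means were 1272 CPM ± 435 against 895 CPM ± 335 (SD, n = 5), with a log2 difference of 0.50 (SE 0.12, 95% interval 0.25 to 0.74; edgeR adjusted p = 0.238). TRNL2, a leucine tRNA at chrMT:12266-12336, had 9.75, 6.52, 9.71, 10.1 and 5.54 CPM with VLDL and 14, 21.7, 18.5, 12.3 and 14.6 CPM with GKT136901 and LPL:VLDL. Its groups did not overlap: the lowest GKT136901 library, 12.3 CPM, was above the highest VLDL library, 10.1 CPM. Of all 4099 tested genes, 8 had every GKT136901 library above every VLDL library and 13 had every one below. The log2 difference was 0.95 (SE 0.22, 95% interval 0.49 to 1.40; edgeR adjusted p = 0.238). TRNP, the proline tRNA at chrMT:15956-16023 on the minus strand, had 29.7, 37.2, 37.9, 24.2 and 25.3 CPM with VLDL and 45.3, 37.8, 47, 29.9 and 40.5 CPM with GKT136901 and LPL:VLDL, higher in 5 of 5 at 0.39 (SE 0.15).

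TRNH and TRNS2, the histidine and serine tRNAs that directly precede TRNL2, had 0.30 (SE 0.11) and 0.21 (SE 0.15). TRNH had 115, 224, 221, 163 and 130.1 CPM with VLDL and 179.5, 300.4, 246, 157 and 165 CPM with GKT136901 and LPL:VLDL, higher in 4 of 5. TRNS2 had 88.6, 96.8, 78.4, 81.9 and 72.9 CPM with VLDL and 141, 102, 151, 69 and 55.3 CPM with GKT136901 and LPL:VLDL, and experiments 5 and 6 were lower, so the 3 neighbours did not have 1 common pattern. TRNA, the alanine tRNA, was below 0 at -0.32 (SE 0.28). Of the mRNAs, ND4L, a complex I subunit, had 17, 10.6, 12.8, 7.44 and 10.6 CPM with VLDL and 19.2, 17.3, 13, 15.8 and 12.6 CPM with GKT136901 and LPL:VLDL, higher in 5 of 5 at 0.43 (SE 0.19). The 2 most abundant mRNAs, mitochondrial COX2 and ND1, had 0.15 (SE 0.14) and 0.093 (SE 0.13), and ND3 was below 0 at -0.22 (SE 0.22). The 16S rRNA gene RNR2 had 742, 850.4, 820.1, 743 and 624 CPM with VLDL and 966, 1051, 1050.5, 609.9 and 654 CPM with GKT136901 and LPL:VLDL, higher in 4 of 5 at 0.16 (SE 0.12), and the 12S rRNA gene RNR1 was at 0.028 (SE 0.12).

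**Figure D4:**
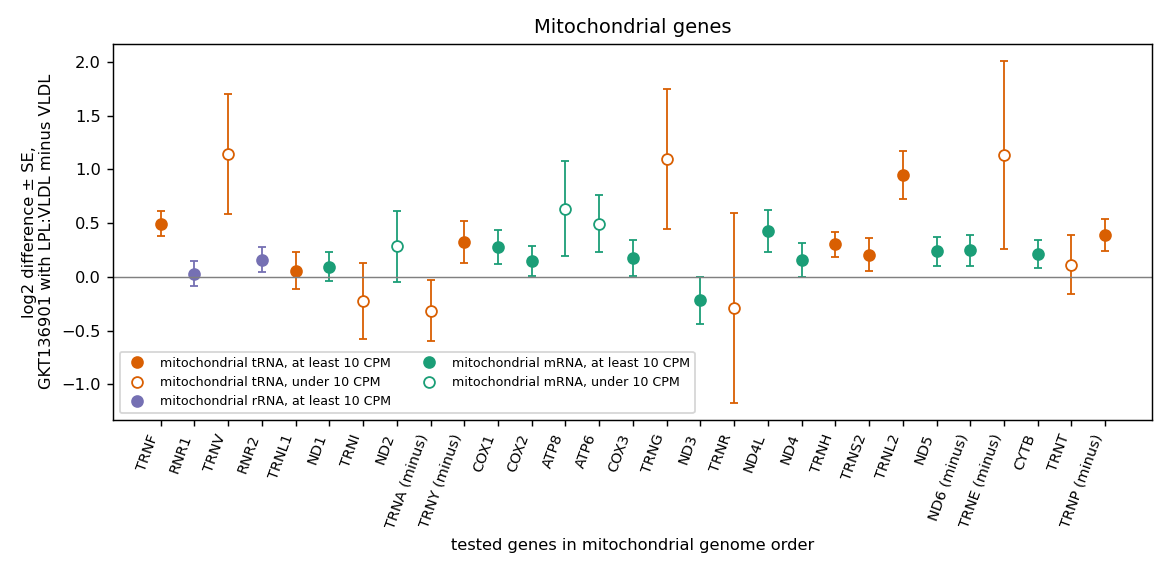
Log2 difference with its SE for the 29 tested mitochondrial genes in genome order, filled where the mean is at least 10 CPM. Among filled points ND3 alone lies below 0, and open points have wide errors.

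LOC105371225 had the lowest p of all genes. This lncRNA lies at chr1:148290889-148317416 on the minus strand, and its exons cover the 72 bases of the tRNA gene TRH-GTG1-4 and 416 bases of LINC02806, whose shared reads were not counted. It had 2294, 1613, 1628, 1136 and 1194 CPM with VLDL and 2726, 2464, 2359, 1714 and 1678 CPM with GKT136901 and LPL:VLDL, higher in 5 of 5 experiments. The means were 2188 CPM ± 469 against 1573 CPM ± 463 (SD, n = 5), with a log2 difference of 0.50 (SE 0.10, 95% interval 0.29 to 0.70; edgeR adjusted p = 0.0849). Over the alternatives its adjusted p ran from 0.000996 with DESeq2 to 0.999 without the block, and it was called by DESeq2 and limma voom, without a filter on low counts, and without the GKT136901 library of experiment 2 (edgeR adjusted p = 0.0369).

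The other lncRNAs were more variable. NR2F2-AS1, the most abundant, had 1984, 4972, 4006, 1979 and 1841 CPM with VLDL and 3649, 3941, 7117, 1737 and 1653 CPM with GKT136901 and LPL:VLDL, at 0.19 (SE 0.14): it was lower in 3 experiments and much higher in experiments 2 and 4. LOC105373324 had 19.8, 52.4, 40.1, 26.4 and 27.7 CPM with VLDL and 28.6, 54.1, 82.8, 29.7 and 28.7 CPM with GKT136901 and LPL:VLDL, higher in 5 of 5 at 0.38 (SE 0.16). NEAT1, the scaffold of paraspeckles, had 13.9, 18.6, 16.2, 24.8 and 21.8 CPM with VLDL and 22.2, 26.7, 19, 26.4 and 24 CPM with GKT136901 and LPL:VLDL, higher in 5 of 5 at 0.33 (SE 0.16). Of 9 tested nuclear and snoRNA host lncRNAs 4 were above 0 (median -0.13), and SNHG12 was at -0.40 (SE 0.46).

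Nuclear tRNAs were above 0 in 43 of 58 well-counted genes (median 0.094; 37 of 58 and 0.05 with library totals), and 11 were higher in 5 of 5 (3 with library totals). TRG-GCC2-2, a glycine tRNA at chr2:156401147-156401217, had 11.1, 16.8, 20.4, 14.5 and 21.4 CPM with VLDL and 16.9, 27.9, 23.7, 23.5 and 28.2 CPM with GKT136901 and LPL:VLDL, with a log2 difference of 0.53 (SE 0.17; edgeR adjusted p = 0.997). TRT-AGT1-1, a threonine tRNA at chr17:8187160-8187233, had 47.7, 189.5, 153, 90.1 and 103 CPM with VLDL and 72.1, 193, 291, 94.9 and 125 CPM with GKT136901 and LPL:VLDL, with a log2 difference of 0.38 (SE 0.14; edgeR adjusted p = 0.997), and most of its difference was in experiments 2 and 4. The 2 most abundant, TRV-CAC1-4 and TRR-ACG2-1, had 0.065 (SE 0.10) and 0.20 (SE 0.10), the second higher in 5 of 5. Among amino acids with at least 3 well-counted genes, those above 0 were 3 of 3 cysteine, 5 of 5 glycine, 6 of 7 proline and 6 of 7 arginine tRNAs. For lysine it was 5 of 6, for valine 3 of 5, for threonine 2 of 4 and for leucine 1 of 4. These few genes stand beside 43 of 58 for the class, and a difference between amino acids was not tested. Many tRNA genes have near-identical copies, and reads that fit several copies were not counted, so these values rest on the reads that were unique to a copy.

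snoRNAs, the largest class, were split about 0 with TMM factors. The C/D count above 0, 68 of 138, was 39 of 138 with library totals. It was 23 of 138 without experiment 2, 40 of 138 without experiment 6, 112 of 138 without experiment 5 and 97 of 138 without the GKT136901 library of experiment 3, so single experiments set on which side of 0 most of these genes lay. SNORD49A, the most abundant, had 61015, 89053, 92738, 88308 and 75280.0 CPM with VLDL and 82150.5, 89283, 75358, 67604 and 82675 CPM with GKT136901 and LPL:VLDL, at -0.021 (SE 0.11) with a 95% interval of -0.25 to 0.21. SNORD50A was at -0.091 (SE 0.11) and SNORD1B, higher in 5 of 5, at 0.10 (SE 0.11). The C/D median was 0.22 in experiment 2 and -0.3 in experiment 5. Of 10 snoRNAs of RPL13A and other lipid-stress loci, some of which are known to be needed for cell death under lipid overload, 7 were above 0 (median 0.0072), and SNORD33 had 343, 401, 382, 320.3 and 326 CPM with VLDL and 538, 397, 419.6, 362 and 329 CPM with GKT136901 and LPL:VLDL, at 0.19 (SE 0.11). Of 10 GAS5-hosted snoRNAs 4 were above 0 (median -0.049), with SNORD44 at 0.066 (SE 0.11), SNORD78 at 0.11 (SE 0.12) and SNORD79 at -0.12 (SE 0.15). Of 7 tested SNHG1-hosted snoRNAs 3 were above 0 (median -0.013), with SNORD26 at -0.013 (SE 0.11), SNORD30 at 0.14 (SE 0.11) and SNORD28 at -0.12 (SE 0.16). Of 11 tested RNAs of pre-rRNA processing 9 were above 0 (median 0.050), with SNORD14C at 0.022 (SE 0.12) and SNORD14A at -0.17 (SE 0.20); RMRP, the RNase MRP RNA on the same list, was higher in 5 of 5 at 0.086 (SE 0.10).

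H/ACA snoRNAs were above 0 in 11 of 26 well-counted genes (median -0.050), in 16 of 26 (median 0.045) without the GKT136901 library of experiment 3, in 15 of 26 without experiment 5 and in 5 of 26 without experiment 2. SNORA7B had 41.7, 38.5, 39.8, 30.8 and 38.6 CPM with VLDL and 33.5, 33.4, 34.3, 19.3 and 30.5 CPM with GKT136901 and LPL:VLDL, lower in 5 of 5 at -0.35 (SE 0.21), and SNORA18 had 656, 577, 447, 469 and 425 CPM with VLDL and 555, 493, 433, 290.3 and 368 CPM with GKT136901 and LPL:VLDL, lower in 5 of 5 at -0.29 (SE 0.19). In both genes the GKT136901 library of experiment 5 was the lowest. SNORA62 was at -0.069 (SE 0.16), and the scaRNAs SCARNA9 and SCARNA20 at 0.024 (SE 0.11) and -0.30 (SE 0.42). RNY1, the main Y RNA, had 21773, 6442, 7003, 9476 and 7392 CPM with VLDL and 25412, 5417, 6449, 9065 and 7099 CPM with GKT136901 and LPL:VLDL, at -0.053 (SE 0.10); it was lower in 4 experiments and higher in experiment 2. RNY5 and RNY4 were at 0.017 (SE 0.11) and -0.17 (SE 0.18), and VTRNA1-2, a vault RNA, at 0.38 (SE 0.31), so that 2 of 5 tested Y and vault RNAs were above 0 (median -0.0023). Of 7 tested snRNAs, spliceosomal ones and RNU7-1, 3 were above 0 (median -0.10). RNU5B-1 had 57.1, 77.7, 58.6, 90 and 56.3 CPM with VLDL and 41.4, 59.5, 69.6, 34.7 and 62.6 CPM with GKT136901 and LPL:VLDL, at -0.36 (SE 0.17). RNU5E-1 was at -0.27 (SE 0.20) and RNU7-1, of the U7 particle and not spliceosomal, at 0.17 (SE 0.19). Of 4 tested 7SK, 7SL and RNase MRP RNAs 2 were above 0 (median 0.040), with RN7SK at -0.18 (SE 0.12) and RN7SL1 at -0.0062 (SE 0.19). The RNase P RNA on that list, RPPH1, had no count.

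Fragments of mRNA were few per gene, and their values had wide errors. Of 3201 tested mRNAs 1445 were above 0 (median -0.070), 85 were higher and 138 lower in 5 of 5, beside 150 (3.66%) and 153 (3.73%) of all 4099 genes. Among those with a mean of at least 2 CPM that were higher in 5 of 5, ARRDC3, an arrestin family gene, had the lowest p. ARRDC3 had 0.791, 4.28, 2.09, 2.03 and 1.69 CPM with VLDL and 2.69, 5.23, 3.58, 6.97 and 7.2 CPM with GKT136901 and LPL:VLDL, at 1.29 (SE 0.40) (edgeR adjusted p = 0.997). The 2 genes of highest count in this class were TOR3A and ZNF860. TOR3A had 276, 694, 617, 469 and 467 CPM with VLDL and 332, 718, 811, 571 and 568 CPM with GKT136901 and LPL:VLDL, higher in 5 of 5 at 0.26 (SE 0.10), and ZNF860 was at 0.13 (SE 0.11).

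In the other direction, IGFBP3, which binds insulin-like growth factors, had 6.41, 3.06, 1.98, 2.03 and 1.08 CPM with VLDL and 2.59, 0.201, 1.19, 0 and 0.229 CPM with GKT136901 and LPL:VLDL, at -2.11 (SE 0.59) (edgeR adjusted p = 0.771). HECA had 3.87, 3.06, 3.97, 6.42 and 3.61 CPM with VLDL and 2.28, 2.21, 0.433, 1.03 and 1.72 CPM with GKT136901 and LPL:VLDL, at -1.50 (SE 0.45) (edgeR adjusted p = 0.997), and its groups did not overlap. Such a gap, with every GKT136901 library lower, was found in 13 of all 4099 tested genes. The next genes were picked after their values were seen. KRR1, a ribosome assembly factor, had 1.67, 2.24, 1.15, 1.01 and 1.2 CPM with VLDL and 0.207, 0, 0.108, 0 and 0 CPM with GKT136901 and LPL:VLDL, at -4.30 (SE 1.20), a fitted value that depends on the prior count because 3 libraries of the GKT136901 group were at 0. H2BC10, a histone gene, had 0.879, 2.75, 0.209, 0 and 2.05 CPM with VLDL and 5.48, 1.41, 5.2, 0.457 and 0.915 CPM with GKT136901 and LPL:VLDL, at 0.93 (SE 0.81), higher in 3 of 5 experiments. MYH9, non-muscle myosin heavy chain, had 20.7, 7.85, 8.98, 9.58 and 10.5 CPM with VLDL and 17.2, 3.02, 7.15, 4.8 and 7.2 CPM with GKT136901 and LPL:VLDL, at -0.64 (SE 0.22). CXCL8, the neutrophil-attracting chemokine interleukin 8, had 29.1, 50.4, 53.7, 21 and 20.2 CPM with VLDL and 20.3, 32.4, 44.6, 13.7 and 16.1 CPM with GKT136901 and LPL:VLDL, at -0.46 (SE 0.18). Both were lower in 5 of 5 with overlapping ranges.

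Genes of macrophages were mostly below 0. Of 21 myeloid markers 10 were tested and 9 were below 0, with a median of -0.44 beside -0.070 for all tested mRNAs, and 3 were lower in 5 of 5. The summed level of the list, in CPM of the library total, was 108.6, 42.4, 40.7, 40.6 and 52.8 CPM with VLDL and 83.4, 33.9, 37.4, 29 and 33.9 CPM with GKT136901 and LPL:VLDL. It was lower in 5 of 5 experiments, at 43.5 CPM ± 22.5 against 57.0 CPM ± 29.3 (SD, n = 5; exact two-sided sign-flip permutation p = 0.063, the lowest possible with 5 pairs; unpaired exact permutation p = 0.452). CSF1R had 18.5, 10.8, 11.8, 8.22 and 13.5 CPM with VLDL and 13.9, 5.63, 11.6, 8.11 and 10.6 CPM with GKT136901 and LPL:VLDL, lower in 5 of 5 at -0.33 (SE 0.24), although experiments 4 and 5 differed by little. With library totals it was lower in 3 of 5, and slightly higher in experiments 4 and 5. ITGAM, the CD11b integrin chain, had 0.879, 1.22, 0.418, 1.69 and 0.602 CPM with VLDL and 0.207, 0, 0, 0 and 0 CPM with GKT136901 and LPL:VLDL: it held 46 counts with VLDL and 2 with GKT136901 and LPL:VLDL, and its groups did not overlap (edgeR adjusted p = 0.997). Groups were apart in this direction in 13 of all 4099 tested genes. SPP1 (osteopontin) and ITGB2 (the CD18 integrin chain) were at -0.49 (SE 0.27) and -0.17 (SE 0.21), and SPI1, the PU.1 transcription factor, at 0.18 (SE 0.82). MMP9, a secreted gelatinase, had 11.2, 3.36, 4.7, 0.113 and 2.17 CPM with VLDL and 8.69, 1.21, 1.63, 0 and 0.343 CPM with GKT136901 and LPL:VLDL, at -1.35 (SE 0.42). MSR1, a scavenger receptor for modified lipoproteins, had 1.05, 2.75, 3.76, 4.84 and 6.63 CPM with VLDL and 0.207, 2.01, 1.73, 0.799 and 1.83 CPM with GKT136901 and LPL:VLDL, at -1.49 (SE 0.49). MMP9 and MSR1, also picked after their values were seen, were lower in 5 of 5 with overlapping ranges (edgeR adjusted p = 0.997 each). The myeloid sum was lower in the same experiments as these mRNAs, and its part in their differences was not tested. The sum of HEK-293 markers, 0.974 CPM ± 1.11 against 0.356 CPM ± 0.373 (SD, n = 5), was lower in 3 of 5 experiments.

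**Figure D5:**
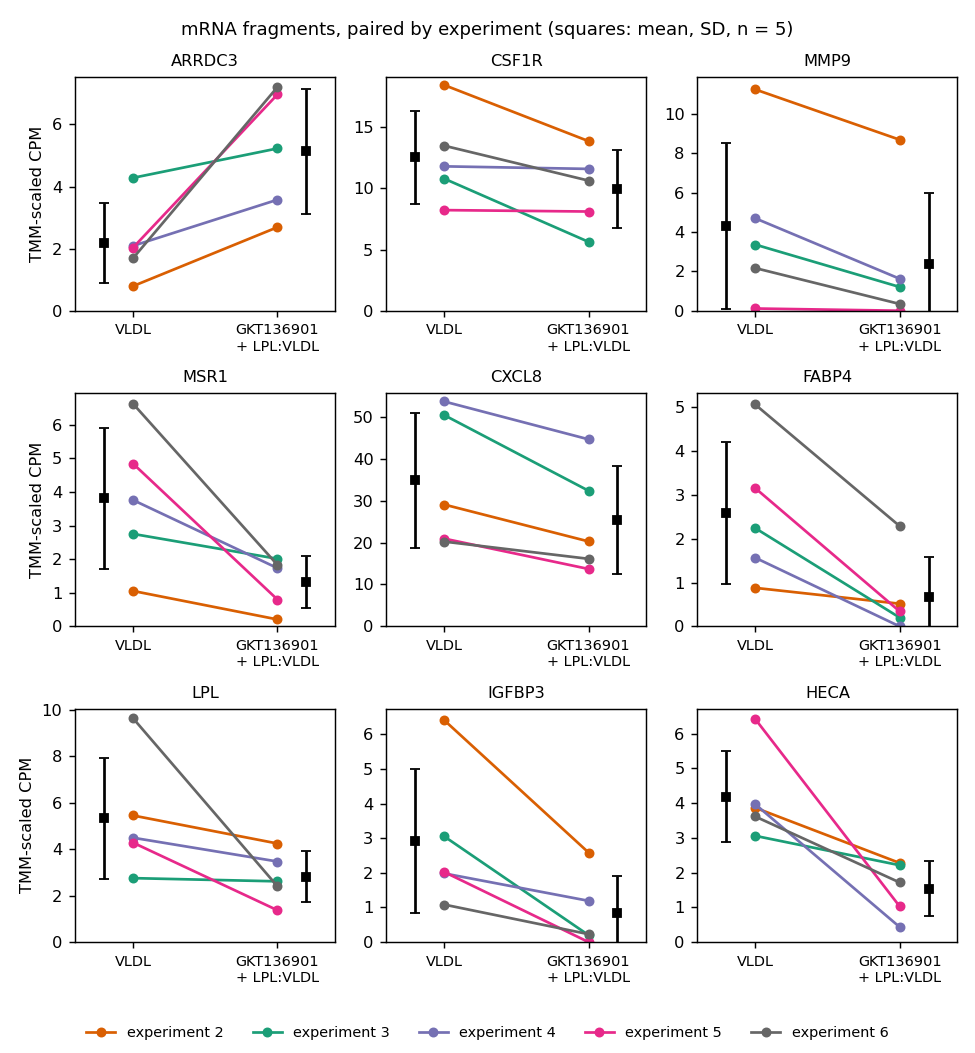
TMM-scaled CPM of 9 mRNAs in the 10 libraries, with lines joining the libraries of an experiment and squares with bars for the mean and SD of 5 (bars end at 0). ARRDC3 lies higher with GKT136901 and LPL:VLDL in all 5 experiments, and the other 8 lower (with library totals CSF1R is lower in 3 of 5).

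Lipid-responsive mRNAs had few counts. Of 19 PPAR targets, genes switched on by fatty acid sensing receptors, 5 were tested and 2 were above 0 (median -0.50). FABP4, a fatty acid carrier of macrophages and fat cells, had 0.879, 2.24, 1.57, 3.15 and 5.06 CPM with VLDL and 0.517, 0.201, 0, 0.343 and 2.29 CPM with GKT136901 and LPL:VLDL, lower in 5 of 5 at -2.16 (SE 0.74) (edgeR adjusted p = 0.997). PLIN2, which coats lipid droplets, had 5.18, 3.67, 4.07, 10.4 and 7.95 CPM with VLDL and 2.9, 6.64, 2.71, 6.74 and 2.74 CPM with GKT136901 and LPL:VLDL, lower in 4 of 5 at -0.50 (SE 0.31), and CPT1A, which brings fatty acids into mitochondria, was at 1.23 (SE 0.95). Of 11 LXR targets, genes of the oxysterol receptors, 2 were tested: LPL itself had 5.45, 2.75, 4.49, 4.28 and 9.64 CPM with VLDL and 4.24, 2.61, 3.47, 1.37 and 2.4 CPM with GKT136901 and LPL:VLDL, lower in 5 of 5 at -0.85 (SE 0.41), while the cholesterol exporter ABCA1 had 1.41, 2.04, 1.57, 0 and 0 CPM with VLDL and 1.55, 3.62, 1.52, 1.14 and 1.6 CPM with GKT136901 and LPL:VLDL, at 1.26 (SE 0.68). LPL held 119 counts with GKT136901 and 250 with VLDL. Of 28 SREBP targets, genes of sterol and fatty acid synthesis, 11 were tested and 7 were below 0 (median -0.040): INSIG1 had 7.12, 2.96, 3.76, 4.62 and 3.37 CPM with VLDL and 1.45, 2.01, 3.25, 4.57 and 2.29 CPM with GKT136901 and LPL:VLDL, lower in 5 of 5 at -0.69 (SE 0.39), IDI1 was at -0.050 (SE 0.22) and SREBF2 at 0.52 (SE 0.51).

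Redox and stress genes had no common direction. NOX4, a target of GKT136901, had no count in any of the 15 libraries, which for the 10 compared (86706814 counts) allows a level of up to 0.0346 CPM (3 counts; counting error only). NOX1 had 1 count, with GKT136901. CYBB, which encodes the phagocyte oxidase NOX2, held 40 counts with GKT136901 and 68 with VLDL. Of 17 NADPH oxidase subunits 3 were tested (median -0.27), RAC2 at -0.27 (SE 0.49), CYBA at 0.40 (SE 0.71) and RAC1 at -0.59 (SE 0.61). Of 13 tested NRF2 targets, the antioxidant program, 8 were above 0 (median 0.11). SLC7A11, the cystine transporter, had 1.67, 4.69, 1.98, 3.15 and 2.29 CPM with VLDL and 2.79, 5.03, 8.34, 2.63 and 5.03 CPM with GKT136901 and LPL:VLDL, at 0.77 (SE 0.36); GCLC, an enzyme of glutathione synthesis, had 4.75, 1.43, 2.4, 4.39 and 4.7 CPM with VLDL and 0.931, 2.61, 1.73, 1.94 and 1.94 CPM with GKT136901 and LPL:VLDL, at -0.96 (SE 0.43); and FTL, a ferritin chain, was at 0.11 (SE 0.23). Of 11 tested genes of the integrated and heat stress responses 7 were above 0 (median 0.24), with DDIT3 at 1.86 (SE 0.86), HSPH1 at -0.070 (SE 0.34) and XBP1 at -1.21 (SE 0.63). Of 8 tested p53 targets 5 were above 0 (median 0.087), with PLK3 at 0.044 (SE 0.22), SESN1 at 0.96 (SE 0.79) and MDM2 at -0.46 (SE 0.67). Of 17 RNAs that blood, plasma or liver could bring 2 were tested, both below 0 (median -0.19), and HBB, ALB and APOB had no count. MIR122 and MIR451A, also at 0, lie in exons of other genes, so their level cannot be read from this table.

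The difference between GKT136901 with LPL:VLDL and VLDL is, in the same model, the sum of LPL:VLDL minus VLDL and GKT136901 with LPL:VLDL minus LPL:VLDL. Both steps use the LPL:VLDL libraries, and neighbouring comparisons share samples, so the values are set side by side with no test. In that order, well-counted miRNAs had medians of 0.12 and 0.0017, nuclear tRNAs 0.20 and -0.084, mitochondrial tRNAs 0.10 and 0.20, and mitochondrial mRNAs 0.064 and 0.18. LOC105371225 had 0.28 (SE 0.10) and 0.22 (SE 0.10), MIR139 0.39 (SE 0.13) and 0.17 (SE 0.12) and MIR378A 0.63 (SE 0.16) and -0.17 (SE 0.16). TRNF had 0.40 (SE 0.12) and 0.10 (SE 0.12), whereas TRNL2 had 0.19 (SE 0.23) and 0.76 (SE 0.22) and TRNP -0.10 (SE 0.15) and 0.49 (SE 0.15). ARRDC3 had 0.44 (SE 0.41) and 0.85 (SE 0.40). Of the mRNAs below 0, FABP4 had -0.45 (SE 0.66) and -1.71 (SE 0.77), IGFBP3 -0.53 (SE 0.53) and -1.58 (SE 0.59), MSR1 -0.37 (SE 0.47) and -1.12 (SE 0.50) and HECA -0.93 (SE 0.43) and -0.57 (SE 0.45).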

How the data were processed

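Small RNA libraries (NEBNext small RNA kit, NovaSeq X, per the labels' protocols) gave 1 deposited table of raw counts per gene. Per the submitters' processing notes, fastp 0.24.0, STAR 2.7.11b, hg38, R 4.4.2, edgeR 4.4.2 and DESeq2 1.46 were used or named. Per the file headers, the authors' counts came from featureCounts 2.0.6 over exons grouped by RefSeq gene, with no option set for strand, for reads of several map positions or for genes that overlap. Reads that fit several places or several genes were therefore not counted, and the strand of a read was ignored.

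Here 4099 of 50037 genes passed filterByExpr (minimum count 10, minimum total 15; 99.7% of counts). They were tested with edgeR 4.0.16 (R 4.3.3): TMM factors, robust quasi-likelihood F test, two-sided, all 15 libraries in 1 model of group and experiment (8 residual degrees of freedom), p adjusted over all 4099 by Benjamini-Hochberg, called under 0.05. Alternatives were limma 3.58.1 (voom), DESeq2 1.42.0, other scaling and filters, no block, and left-out libraries. Per-experiment log2 differences used a pseudocount of 0.1 CPM.

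Libraries were paired through the experiment that the labels name for each (experiments 2 to 6 for replicates 1 to 5). Deviations from group means over well-counted genes correlated at r = 0.52 to 0.86 (median 0.69) between the GKT136901 and VLDL libraries of an experiment and at a median of -0.34 (highest 0.71) between those of different experiments; such correlations are across genes, which are not independent replicates. Class shares and marker sums were compared by exact permutation tests. Intervals are at 95%. RNA classes came from RefSeq biotypes and names (49654 genes matched; genes without one held 0.0033% of counts), and 127 of the 133 well-counted miRNA genes matched a printed-sequence table.

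The libraries compared and all 25 gene lists were chosen with earlier results of these data known. Genes were named by rule: any called; per class the 2 of lowest p among those higher, and among those lower, in 5 of 5; the 2 most abundant per class; per list the most abundant and the lowest p above and below 0; and NOX1 and NOX4. Results for 1 of the genes that the rule names are not reported here; the others are given. Genes outside the rule are marked as picked after their values were seen, among them MIR501, MIR502, MIR148B, MIR152, MIR132, MIR185, MIR320A, TRNP, TRNS2, SPP1 and ITGB2. A list is described by its counts and median, with no list test.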

Additional observations from a re-analysis of the deposited data

Results flagged for a closer look

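In a group of 5 libraries, a value was marked when its gap to the nearest other library exceeded 0.71 of the whole range (Dixon's 95% value). Of 250 groups checked 31 were marked (12.4%), where chance marks about 5%, and 22 of the 31 were libraries of experiment 2.

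In experiment 2 the share of Y RNA was 3.24% with GKT136901 and 3.12% with VLDL, with RNY1 at 25412 and 21773 CPM and RNY5 at 2576 CPM with GKT136901. The myeloid sum was 83.4 and 109 CPM. In its VLDL library the mRNA share was 1.49% and the mitochondrial mRNA share 0.0815%. MIR99A stood at 83.3 CPM with GKT136901 and 76.7 CPM with VLDL. High values with VLDL were SPI1 at 4.31 CPM and MYH9 at 20.7 CPM; high values with GKT136901 were MMP9 at 8.69, SPP1 at 22.6 and ITGAM at 0.207 CPM, where the other 4 ITGAM libraries were at 0. Low values in the VLDL library of experiment 2 were MIR378A at 12.6, MIR502 at 10.6, MIR148B at 1757, MIR152 at 251, MIRLET7G at 18400.1 and RN7SK at 126 CPM.

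Outside experiment 2, the GKT136901 library of experiment 3 had the lowest total, 5076917 counts, and ABCA1 at 3.62 CPM. Experiment 5 had low SNORA7B in both groups (19.3 CPM with GKT136901 and 30.8 CPM with VLDL), low SNORD30 with GKT136901 (8649 CPM) and high HECA with VLDL (6.42 CPM). Experiment 6 had high CPT1A with VLDL (2.05 CPM), and high FABP4 (2.29 CPM) and RNU5E-1 (175 CPM) with GKT136901.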

How the results depend on the processing

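The count of called genes, 0 in edgeR with the replicate block, was 2 higher by DESeq2 with the block, 4 higher and 1 lower by limma voom with the block, and 2 higher without a filter on low counts; leaving out libraries or experiments gave 0 to 1 higher and 0 lower (1 without GKT136901 replicate 1, LOC105371225). With no replicate block it was 0, so the block changed no call. The other scalings, the stricter filter and the 10 libraries alone also gave 0. The mean paired difference of the Y RNA share was -0.0621 to 0.00199 percentage points when each experiment was left out, and the median of well-counted mRNAs was 0.19 at a minimum of 100 CPM, which only 2 genes reached, and -0.034 at 5 CPM (189 genes), against 0.031 at 10 CPM (65 genes). Other class shares, class medians and marker sums kept their sign or moved by less than 1 SD. Of 107 named genes 81 kept their direction under every setting. Genes near 0 turned sign: with no replicate block, RNY1 0.037, RN7SL1 0.021 and SPI1 -0.21; with library totals and the replicate block, RNY5 -0.030, RNR1 -0.011, SCARNA9 -0.014, SNORD14C -0.021 and PLK3 -0.00083; with genes of at least 10 CPM alone and the replicate block, RNY5 -0.020, RNR1 -0.0032, SCARNA9 -0.0072 and SNORD14C -0.013; without a filter and with the replicate block, RNY5 -0.014, RNR1 -0.0044, SCARNA9 -0.010 and SNORD14C -0.010; with limma voom and the replicate block, SPI1 -0.39 (log2; the cause was not tested). Over the left-out libraries and experiments the log2 differences ran from -0.16 to 0.074 for SNORD49A, from -0.26 to 0.14 for SNORA62, from -0.10 to 0.086 for RNY5, from -0.028 to 0.23 for COX2, from -0.019 to 0.19 for ND1, from -0.023 to 0.11 for RNR1, from -0.022 to 0.10 for TRV-CAC1-4, from -0.12 to 0.13 for RN7SL1, from -0.044 to 0.071 for SCARNA9, from -0.30 to 0.066 for MIR99A, from -0.22 to 0.016 for MIRLET7F1, from -0.011 to 0.14 for SNORD44, from -0.33 to 0.022 for SNORD79, from -0.10 to 0.065 for SNORD26, from -0.25 to 0.0043 for SNORD28, from -0.061 to 0.11 for SNORD14C, from -0.42 to 0.011 for ND3, from -0.23 to 0.054 for IDI1, from -0.033 to 0.29 for FTL, from -0.38 to 0.095 for HSPH1, from -0.11 to 0.22 for PLK3, from -0.69 to 0.16 for RAC2, from -0.076 to 0.76 for CYBA, from -1.02 to 0.015 for RAC1, from -0.54 to 0.93 for SPI1. Added choices, made after seeing the data, left out the GKT136901 library of lowest depth (replicate 2) and each experiment in turn. Members above 0 then numbered 10 to 11 of 14 for mitochondrial tRNAs and 13 to 14 of 15 for mitochondrial rRNAs and mRNAs, and 8 to 10 of 10 myeloid markers were below 0; without replicate 2 of GKT136901 110 of 133 well-counted miRNAs and 16 of 26 H/ACA snoRNAs were above 0, and the C/D snoRNAs stood at 97 of 138. The median SE of a gene was 0.67 for all tested mRNAs and 0.27 for all tested miRNAs, and 0.21 and 0.13 for those well counted. A further added choice, library totals for the counts in 5 of 5, gave 117 higher and 189 lower of all 4099 genes, against 150 and 153.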
